A study of Mus musculus with 32 samples.

Results

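Tibialis muscle from sick Gne knock-in mice was compared with tibialis muscle from wild-type mice by RNA-seq. The comparison rests on 3 libraries of the sick state (replicates 1, 2 and 4) and 4 wild-type libraries (replicates 1 to 4), chosen by their muscle and state labels, which is 7 of the 32 libraries of the study. Knock-in mice of both states carried the M743T change on both Gne alleles, and the mice were male and up to 3 months old. Wild-type mice were labelled healthy, and 4 further tibialis libraries came from knock-in mice that were also labelled healthy. The sources used here do not give the signs by which a knock-in mouse was called sick, the strain background or the part of the muscle taken. The labels do not say which libraries came from the same mouse, so each p-value below measures the spread between libraries. The number of mice stated is 4 per state, so libraries of different muscles may share mice.

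GNE is the bifunctional enzyme that catalyses the first steps of sialic acid synthesis, and recessive changes in its gene cause GNE myopathy in people. In that disease the tibialis anterior muscle is affected early, whereas the quadriceps is relatively spared. Muscle mass is set by the balance of protein synthesis, which the kinase complex mTORC1 promotes, and protein breakdown, which the FoxO transcription factors, the ubiquitin ligases Fbxo32 and Trim63, the proteasome and autophagy carry out. Fasting, glucocorticoids and disuse are known to shift that balance toward breakdown.

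The 7 libraries held between 12893868 and 25328450 counts assigned to genes, so that 1 read stood for 0.0387 to 0.0811 CPM over the 11 tibialis libraries. CPM, the usual depth-corrected level, is a gene's read count per library total, with totals scaled by TMM (trimmed mean of M-values). Gene lists are compared by how many members passed an adjusted p of 0.05 in limma, and the members' median log2 fold change is set beside that of all genes. Of the 14 genes that define skeletal muscle fibres, summed CPM was 136431 to 197811 in wild type and 157349 to 234700 in sick muscle, so both groups carried the transcripts of their labelled tissue. Transcripts of the mitochondrial genome took 13.4% to 15.5% of counts in wild-type libraries and 8.28% to 12.3% in sick libraries, the lowest being sick replicate 2. That library also stood apart in many of the genes below, often with the highest level of a gene that rose.

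Kidney transcripts were treated apart, because the wild-type tibialis libraries carried them. Kap, an androgen-regulated protein of the kidney proximal tubule, was at 31.1, 41.9, 35.0 and 35.1 CPM in wild-type replicates 1 to 4, at 0 to 1.04 CPM in the healthy knock-in and at 0, 0 and 0.111 CPM in sick replicates 1, 2 and 4. Slc34a1, the sodium phosphate cotransporter of the proximal tubule, had 726 reads in the wild-type libraries and 0 in the sick libraries, at least 193-fold lower against a limit of 3 reads over the 3 sick libraries. Slc27a2, a fatty acid transporter, had 585 reads in wild type and 0 in the sick libraries, at least 155-fold lower on the same limit. Acsm2, a kidney acyl-CoA synthetase, lay between 8.62 and 13.7 CPM in wild type and between 0 and 0.116 CPM in sick muscle. Every wild-type library was therefore high for these genes and every knock-in library of either state near 0.

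Of 146 listed kidney genes, 72 were tested. In sick muscle 62 were lower (86.1%, against 9.23% of the other genes) and 1 was higher. In the healthy knock-in against wild type 50 were lower, as were 0.138% of the other genes. A gene could enter the test by its level in as few libraries as the smallest group has. Kidney genes near 0 in knock-in muscle could thus enter through the wild type alone, so the share that was lower is partly fixed by the filter. Their summed CPM was 273 to 362 in wild type, 119 to 132 in the healthy knock-in and 110 to 144 in sick muscle. The single kidney-list gene that was higher was Egf, a growth factor precursor that muscle also holds reads of, at 18.1 to 21.7 CPM in wild type and 27.2 to 53.6 CPM in sick muscle (log2 fold change 0.84 ± 0.25 (SE), adjusted p = 0.038 in limma). Its call was lost without sick replicate 1 (adjusted p = 0.114) or any 1 wild-type library (adjusted p = 0.0603 to 0.0813), and with sick and wild-type libraries fitted alone (adjusted p = 0.0637). Kidney RNA was high in all 4 wild-type libraries and in none of the knock-in libraries, so its share in any other difference from wild type cannot be told apart from genotype. The kidney list was left out of every count that follows.

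**Figure D1:**
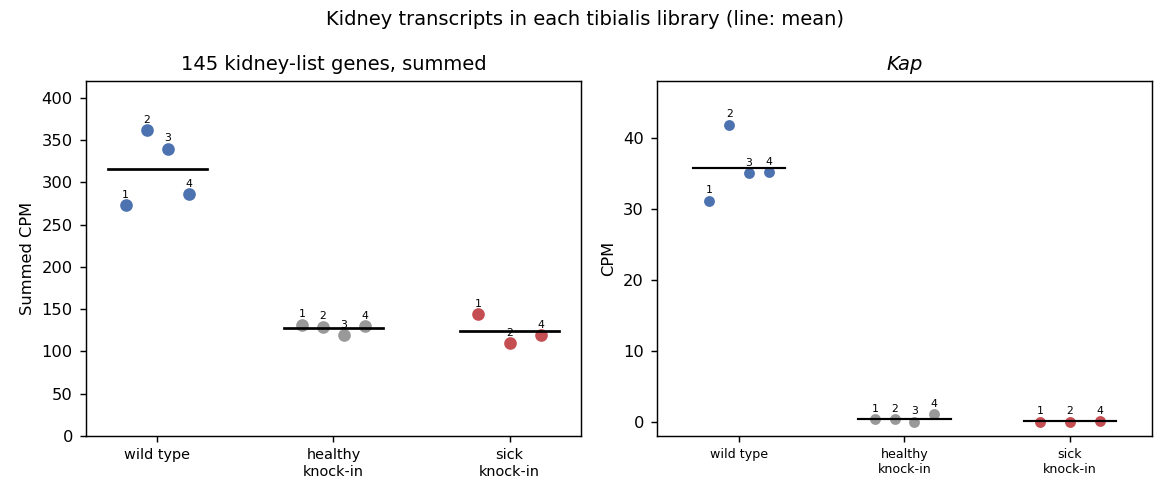
Summed CPM of the kidney list (left) and CPM of Kap (right) in each of the 11 tibialis libraries, with replicate numbers and the group mean as a line. The wild-type libraries lie between 273 and 362 summed CPM, above the healthy (119 to 132) and sick (110 to 144) knock-in libraries.

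Outside the kidney list 14448 genes were tested, and 2558 of them (17.7%) differed between sick and wild-type tibialis at an adjusted p under 0.05 in limma. The levels of 1225 genes (8.48%) were higher and those of 1333 genes (9.23%) were lower in the sick muscle. In 30.7% of the genes tested no sick library lay within the wild-type range and no wild-type library within the sick range. The median log2 fold change of all these genes was -0.04. Against the same wild-type libraries the healthy knock-in differed in 22 genes (0.152%), and sick against healthy knock-in muscle differed in 1645 genes (11.4%), of which 731 (5.06%) were higher and 914 (6.33%) lower. The authors' deposited table lists 3824 genes at an adjusted p under 0.05 for this comparison, and it includes 2399 of the 2558 genes. Leaving out 1 library at a time, 669 of the 2558 genes (370 higher and 299 lower) passed in each of the 7 fits, and the number called fell to 902 without sick replicate 2, 1400 or 1482 when wild-type replicate 2 or 1 was left out and 1630 without sick replicate 1. It was 1175 with the sick and wild-type libraries fitted alone and 2 with the summed kidney level as a covariate, which separates wild type from knock-in. Without sick replicate 2, 526 genes were higher and 376 lower, and without sick replicate 4, 1598 and 1384. With the sick and wild-type libraries fitted alone, 433 were higher and 742 lower. List counts given below for other fits are to be read beside these totals, because the totals move as well.

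Gne itself (chromosome 4, 44034075 to 44084177, GRCm38, minus strand) was at 10.5, 9.65, 9.40 and 10.7 CPM in wild-type replicates 1 to 4, at 9.17 to 10.8 CPM in the healthy knock-in and at 9.99, 9.48 and 8.78 CPM in sick replicates 1, 2 and 4. The ranges overlapped, and the log2 fold change was -0.11 ± 0.14 (adjusted p = 0.621). A single-residue knock-in leaves the gene able to be transcribed, and counts per gene do not show the residue, so the genotype labels could not be checked by them.

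None of the 16 tested genes of sialic acid synthesis, transport and removal passed, with a median log2 fold change of -0.17. Cmas, which activates sialic acid to its nucleotide sugar, was at 20.4, 20.9, 27.5 and 20.6 CPM in wild type and 14.3, 17.5 and 17.7 CPM in sick muscle, ranges that did not overlap (log2 fold change -0.42 ± 0.16, adjusted p = 0.0852). Nans, the sialic acid synthase, had a log2 fold change of -0.36 ± 0.18 (adjusted p = 0.169), and Slc35a1, the Golgi transporter of the activated sugar, of -0.26 ± 0.19 (adjusted p = 0.323). Nanp, the phosphatase of the pathway, lay at 0.696 to 1.45 CPM in wild type and 0.612 to 1.01 CPM in sick muscle.

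Among 16 tested sialyltransferases, the enzymes that attach sialic acid to glycans, 1 fell (6.25%) and 2 rose (12.5%). These shares are near those of all genes (9.23% lower and 8.48% higher). The one that fell was St3gal5, which makes the ganglioside GM3 (chromosome 6, 72097592 to 72154571, plus strand). Its level was 98.8, 118, 141 and 122 CPM in wild type and 44.1, 45.7 and 54.8 CPM in sick muscle, with every sick library below every wild-type library. St3gal5 fell by 1.31 ± 0.15 on the log2 scale (2.49-fold, adjusted p = 0.000605) and kept its call without any 1 library. It was at 84.4 to 101 CPM in the healthy knock-in, and sick against healthy its log2 fold change was -0.97 (adjusted p = 0.00895). St8sia6 (log2 fold change 1.05 ± 0.28) and St6galnac6 (0.61 ± 0.19), both sialyltransferases, rose with adjusted p = 0.0274 and 0.0494. St8sia6 lost its call without sick replicate 2 or wild-type replicate 1, 2 or 3, and St6galnac6 without sick replicate 1 or 4 or any 1 wild-type library (adjusted p = 0.0538 to 0.166 over both). With sick and wild-type libraries fitted alone neither of the pair passed, and St6galnac6 did not without the filter on low counts or with kidney genes removed before scaling (adjusted p = 0.0512 to 0.11).

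The 12 genes that rose most, among those with a mean of at least 5 CPM in the higher group and ranges that did not overlap, are given first. Chrna9, an acetylcholine receptor subunit better known from inner ear hair cells, was at 0.193 to 0.649 CPM in wild type and 10.9, 37.2 and 2.5 CPM in sick replicates 1, 2 and 4 (29.1-fold, log2 fold change 4.87 ± 1.21, adjusted p = 0.0213). Ctxn3, a small membrane protein, rose 15.5-fold from 3.63 to 6.08 CPM in wild type to 62, 263 and 26.6 CPM (adjusted p = 0.00526). Stc2, a secreted glycoprotein of the stress response, was at 3.50, 2.51, 3.46 and 2.51 CPM in wild type and 71.1, 32.4 and 15.7 CPM in sick muscle (11.1-fold, log2 fold change 3.47 ± 0.52, adjusted p = 0.00357). Sick replicate 2 was the highest of the sick libraries for Chrna9 and Ctxn3, and sick replicate 1 for Stc2. Slc43a1, a transporter of large neutral amino acids, rose 8.71-fold (adjusted p = 0.00601). Gng2, a G protein gamma subunit, rose 7.63-fold, from 2.77 to 6.06 CPM in wild type to 56.8, 36.9 and 25.0 CPM, with adjusted p = 0.000399. Avil, an actin-binding protein of sensory neurons, rose 7.88-fold and Fibin, a secreted protein, 7.14-fold. Gnmt, which uses up methyl groups by methylating glycine, rose 9.69-fold from 0.271 to 1.11 CPM to 5.05, 11.6 and 1.39 CPM. Doc2b, a calcium sensor of vesicle release, rose 9.72-fold (adjusted p = 0.0306). Sesn1, Cebpd and Il6ra complete the 12 and are described with their pathways. Of the 12, Ctxn3, Stc2, Sesn1, Slc43a1, Avil, Gng2 and Fibin kept their calls without any 1 library, whereas Chrna9, Doc2b, Gnmt and Il6ra lost theirs without wild-type replicate 1, Chrna9, Doc2b and Il6ra without wild-type replicate 2 or 3, and Cebpd, Doc2b and Il6ra without sick replicate 2 (adjusted p = 0.0525 to 0.0783). Without the filter on low counts Chrna9, Cebpd, Doc2b, Il6ra and Fibin did not pass, nor Chrna9 with all 32 libraries in the fit (adjusted p = 0.0532 to 0.116). Leaving out sick replicate 2 lowered the log2 fold change from 4.87 to 3.86 for Chrna9, from 3.95 to 3.10 for Ctxn3, from 3.28 to 2.33 for Doc2b, from 3.28 to 2.497 for Gnmt, from 3.12 to 2.33 for Slc43a1 and from 2.84 to 1.95 for Fibin. Leaving out sick replicate 4 raised it to 5.83 for Chrna9, 4.70 for Ctxn3 and 4.07 for Gnmt, and from 2.98 to 3.68 for Avil.

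The 12 genes that fell most by the same rule included Vcp-rs and Ces1f, which were also low in the healthy knock-in. Vcp-rs, annotated as a processed pseudogene on chromosome X (104345829 to 104348234, minus strand), was at 49.1, 70.2, 54.1 and 62.7 CPM in wild type, 0.0419 to 0.0903 CPM in the healthy knock-in and 0.0595 to 0.193 CPM in sick muscle. Its log2 fold change was -8.68 ± 0.46 (adjusted p = 3.27e-06) in the sick and -9.32 in the healthy knock-in. Reads of this copy and of its parent gene Vcp may have been divided by the counting, so its level is uncertain. Ces1f, a carboxylesterase of liver and kidney, lay at 4.22 to 7.46 CPM in wild type, 0 to 0.696 CPM in sick and 0.279 to 1.71 CPM in healthy knock-in muscle, a pattern like that of the kidney list, which does not hold it.

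The other 10 had varied roles. Kera, Chad and Cilp2, which encode matrix proteins of tendon and cartilage, had log2 fold changes of -5.91 ± 1.48, -4.83 ± 1.44 and -4.55 ± 1.12. Spp1, the matrix protein osteopontin, was at 30.0, 2.27, 18.7 and 4.49 CPM in wild type and 0.416, 0.309 and 0.667 CPM in sick muscle. Nrep, a regulator of the response to TGF-beta, fell 17.4-fold from 266, 179, 253 and 171 CPM to 17.5, 3.25 and 38.3 CPM (log2 fold change -4.12 ± 0.61, adjusted p = 0.00325). All 3 sick libraries lay far below the wild-type range for Nrep, while the healthy knock-in held 130 to 249 CPM. Nmrk2, the muscle kinase that makes NAD from nicotinamide riboside, fell 16.2-fold from 77.8 to 206 CPM to 10.7, 1.43 and 48.9 CPM (adjusted p = 0.0113). Aplnr, the apelin receptor of endothelium, fell 16.4-fold and G0s2, an inhibitor of fat breakdown, 15.5-fold. Cnksr2, a signalling scaffold, had a log2 fold change of -4.24 and Irx3os, a transcript opposite Irx3, of -4.92. Vcp-rs, Ces1f, Nrep and Nmrk2 kept their calls without any 1 library. Without sick replicate 2 the other 8 lost theirs (adjusted p = 0.0507 to 0.194). Kera, Chad, Cilp2 and Spp1 lost theirs without sick replicate 1, and Chad, Spp1 and G0s2 without sick replicate 4 (adjusted p = 0.0501 to 0.0873). Chad lost its call without wild-type replicate 1, 2 or 3, Spp1 without replicate 3, and G0s2 without replicate 2 or 3 (adjusted p = 0.0501 to 0.0681). Kera, Chad, Cilp2, Spp1 and G0s2 also missed without the filter on low counts and with quality weights per library, Chad and Spp1 with all 32 libraries in the fit and Spp1 with sick and wild-type libraries fitted alone (adjusted p = 0.0533 to 0.145). The log2 fold change without sick replicate 2 was -4.64 for Kera, -3.12 for Cnksr2, -3.01 for Nrep, -2.98 for G0s2 (-3.95 with all libraries) and -2.52 for Nmrk2 (-4.01 with all libraries). It was -5.03 for Cnksr2 and -5.16 for G0s2 without sick replicate 1, and -6.58 for Kera, -5.83 for Irx3os, -5.25 for Nmrk2 and -4.93 for Nrep without sick replicate 4. Ces1f, at -5.24 with all libraries, was at -4.25 without sick replicate 1 and -6.68 without sick replicate 2. Chad was at -4.13 without wild-type replicate 4, and Spp1 at -3.67 without wild-type replicate 1 (-4.33 with all libraries).

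**Figure D2:**
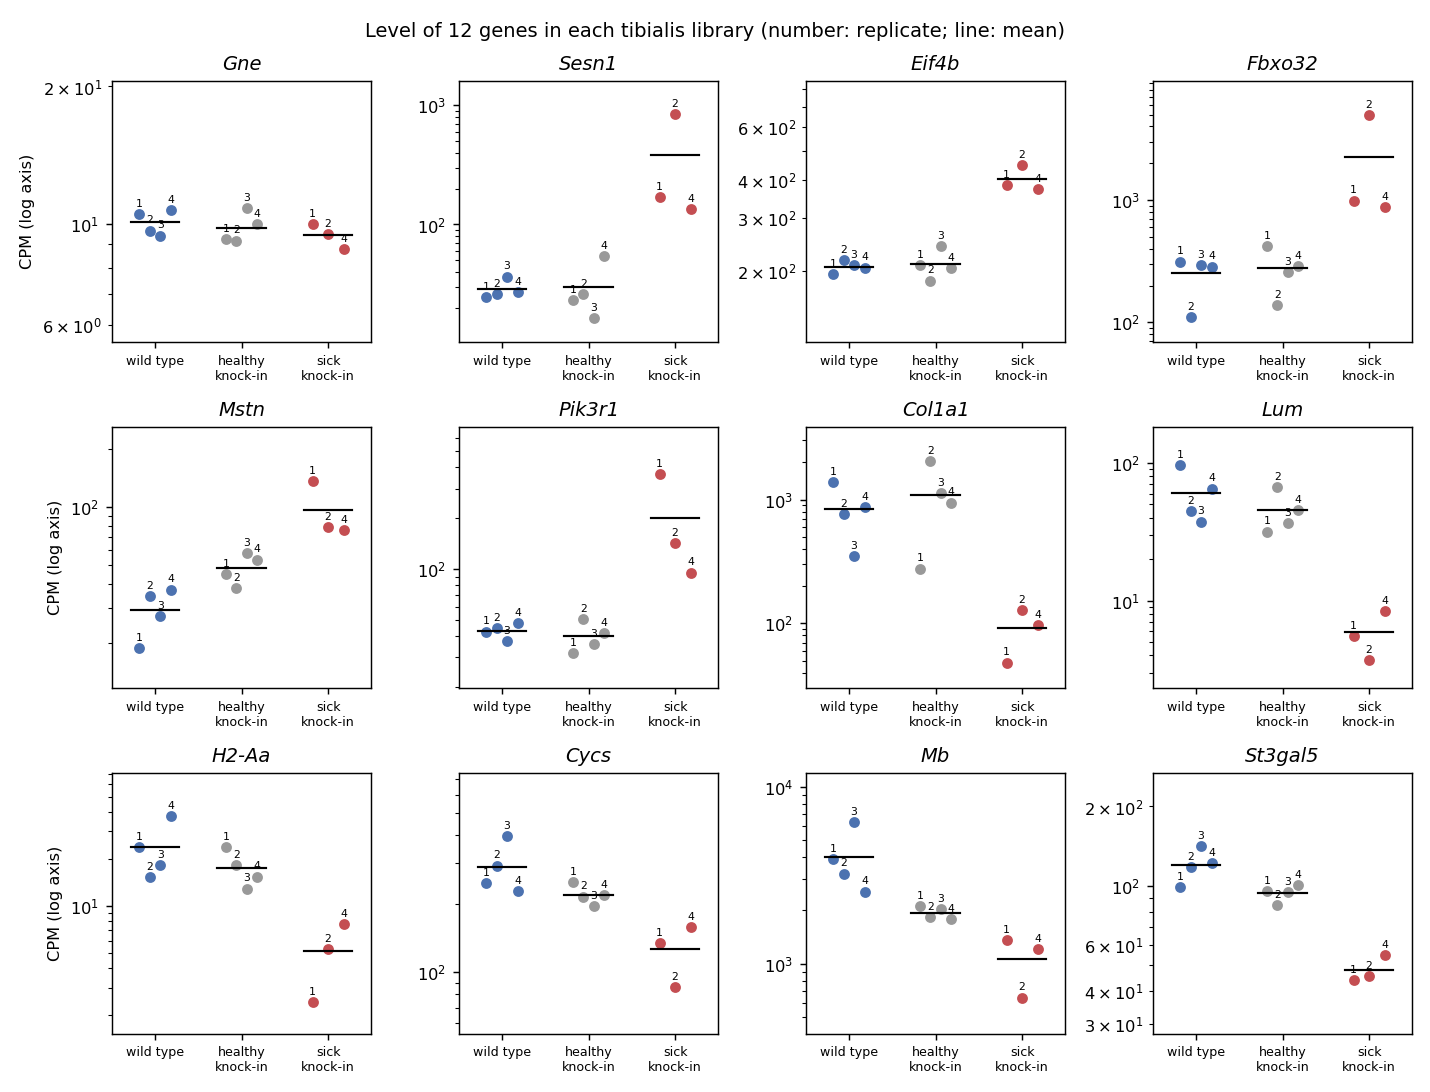
CPM on a log axis of 12 genes in each tibialis library, with replicate numbers and the group mean as a line. Gne overlaps between groups, whereas the other 11 genes have sick libraries wholly above (Sesn1, Eif4b, Fbxo32, Mstn, Pik3r1) or wholly below (Col1a1, Lum, H2-Aa, Cycs, Mb, St3gal5) the wild-type libraries. In the healthy knock-in Mb lies wholly below and Mstn wholly above the wild type, though neither passed there (adjusted p = 0.568 and 0.772).

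Genes that restrain mTORC1 rose in the sick muscle. Of 18 tested brakes on mTORC1 signalling, 5 rose (27.8%, against 8.48% of all genes) and none fell, with a median log2 fold change of 0.36. Sesn1, a sensor that holds mTORC1 back when leucine is scarce, was at 24.7, 26.0, 36.6 and 27.3 CPM in wild type, 16.5 to 54.4 CPM in the healthy knock-in and 169, 838 and 135 CPM in sick replicates 1, 2 and 4. Sick replicate 2 was the highest and all 3 sick libraries lay above the wild-type range (log2 fold change 3.22 ± 0.54, 9.31-fold, adjusted p = 0.00551). Eif4ebp1, the repressor of cap-dependent translation that mTORC1 switches off, was at 24.4 to 47.9 CPM in wild type and 122, 512 and 87.7 CPM in sick muscle (5.20-fold, adjusted p = 0.00936). Its relative Eif4ebp2 rose 1.6-fold and Tsc1, part of the complex that turns off the mTORC1 activator Rheb, 2.41-fold. Ddit4, a stress-induced brake, was at 28.8, 23.5, 10.7 and 152 CPM in wild type and 113, 582 and 477 CPM in sick muscle, so wild-type replicate 4 overlapped the sick range (log2 fold change 3.23 ± 0.93, adjusted p = 0.0339).

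Components of the translation apparatus rose in the same libraries. Among 26 tested translation factors, 12 rose (46.2% against 8.48% of all genes) and none fell, with a median log2 fold change of 0.52. Eif4b, which helps the scanning ribosome unwind mRNA, was at 195, 217, 208 and 205 CPM in wild type and 384, 448 and 372 CPM in sick muscle, a rise seen in every sick library (1.93-fold, log2 fold change 0.95 ± 0.14, adjusted p = 0.00359). Eef2, the elongation factor that moves the ribosome, was at 1087 to 1147 CPM in wild type and 2189, 2031 and 1945 CPM in sick muscle (1.84-fold, adjusted p = 0.00593). Eif4g3, a scaffold of the cap-binding complex, rose 2.33-fold and Eif3c, an initiation factor subunit, 1.70-fold. Of 42 ribosomal protein genes all 42 had positive log2 fold changes, with a median of 0.42, but only Rpl4 passed (log2 fold change 0.81 ± 0.21, adjusted p = 0.0264). Sesn1, Eif4ebp1, Eif4ebp2, Tsc1, Eif4b, Eef2, Eif4g3 and Eif3c held without any 1 library, the last 4 being those of the 12 rising translation factors that did. Ddit4 did not pass without wild-type replicate 1, 2 or 3 or sick replicate 2 or 4, nor Rpl4 without wild-type replicate 1 or 2 or sick replicate 1 (adjusted p = 0.0606 to 0.128). Ddit4 also missed without the filter on low counts, with quality weights per library and with sick and wild-type libraries fitted alone, as did Rpl4 in the last of these (adjusted p = 0.0515 to 0.119). The count of 12 translation factors fell to 7 without wild-type replicate 1, wild-type replicate 2 or sick replicate 2 and to 6 with sick and wild-type libraries fitted alone. Leaving out sick replicate 2 gave a log2 fold change of 2.44 for Sesn1 and of 1.65 for Eif4ebp1 (2.38 with all libraries), and that of Ddit4 was 3.99 without sick replicate 1 and 4.003 without wild-type replicate 4.

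Some genes of muscle protein breakdown rose. Of 22 tested muscle ubiquitin ligases 6 rose (27.3% against 8.48% of all genes) and 2 fell (9.09% against 9.23%), with a median log2 fold change of 0.36. Fbxo32, the muscle-specific ligase also called atrogin-1, was at 314, 110, 294 and 286 CPM in wild type, 139 to 420 CPM in the healthy knock-in and 988, 4946 and 876 CPM in sick replicates 1, 2 and 4 (6.97-fold, log2 fold change 2.80 ± 0.58, adjusted p = 0.0121). Trim63, the ligase MuRF1 that marks myosin and other thick filament proteins, was at 145.3, 100.2, 220 and 192 CPM in wild type, 118 to 445 CPM in the healthy knock-in and 325, 5243 and 540 CPM in sick muscle (6.07-fold, adjusted p = 0.034). For both ligases sick replicate 2 lay far above the other sick libraries, which were themselves above the wild-type range, while healthy knock-in levels reached into the sick range for Trim63. Fbxo31, a relative of Fbxo32, rose 3.62-fold (adjusted p = 0.0105) and Ubr2, a ligase of the N-degron pathway, 1.85-fold (adjusted p = 0.0313).

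Of 30 tested FoxO factors and autophagy genes, 6 rose (20%) and 1 fell (3.33%), with a median log2 fold change of 0.49. Foxo3, the factor that drives Fbxo32 and autophagy genes, was at 31.7, 27.3, 33.7 and 43.8 CPM in wild type and 108, 183 and 66.5 CPM in sick muscle (3.22-fold, adjusted p = 0.0124), with no overlap. Foxo4 rose 1.87-fold (adjusted p = 0.0104), and Foxo1 4.02-fold (adjusted p = 0.0411), with wild-type replicate 4 at 95.3 CPM just under the lowest sick library at 99.5 CPM. Foxo6 was the exception, at 3.41 to 14 CPM in wild type and 0.503 to 2.5 CPM in sick muscle (log2 fold change -2.67 ± 0.81, adjusted p = 0.0406). Among 32 proteasome subunits and activators, 31 had positive log2 fold changes and 4 passed (12.5%, near the 8.48% of all genes), all higher: Psme4, a proteasome activator (1.96-fold), and Psmd2, Psmd1 and Psmd4, subunits of the regulatory particle (2.07-, 1.93- and 1.94-fold). Of 22 lysosomal genes 2 rose and 2 fell, 9.09% in each direction, which is close to the shares of all genes. One that rose was Gaa, the lysosomal enzyme that breaks down glycogen, at 178 to 201 CPM in wild type and 277, 698 and 346 CPM in sick muscle (adjusted p = 0.0154).

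The calls of Fbxo32, Fbxo31, Foxo4, Foxo3, Psme4, Psmd2, Psmd1 and Gaa held without any 1 library. Trim63 did not pass without sick replicate 2 or wild-type replicate 1, 2 or 3. Its log2 fold change was 2.60 with all libraries, 1.44 without sick replicate 2 and 3.40 without sick replicate 1. For Fbxo32 it was 2.03 and for Foxo6 -2.03 when sick replicate 2 was left out. Foxo1 and Foxo6 did not pass without sick replicate 1 or 2 or wild-type replicate 1, 2 or 3, nor Foxo6 without sick replicate 4. Ubr2 did not pass without sick replicate 1 or 2 or wild-type replicate 2 or 3, and Psmd4 without sick replicate 1 or 2 or wild-type replicate 1, 2 or 4 (adjusted p = 0.0519 to 0.198 over these 5 genes). Without the filter on low counts Fbxo32, Trim63, Foxo1, Foxo6 and Psmd4 did not pass, with sick and wild-type libraries fitted alone Trim63, Ubr2, Foxo1, Foxo6, Psmd1 and Psmd4, and with quality weights per library Foxo1 and Foxo6 (adjusted p = 0.0516 to 0.174; 0.0595 for Fbxo32 and 0.0519 for Psmd1). The count of rising ligases was 3 without the filter and 2 with the sick and wild-type libraries alone, that of FoxO and autophagy genes 3 and 2 (12 with all 32 libraries) and that of proteasome genes 2 with the sick and wild-type libraries alone. The count of rising ligases fell to 2 without wild-type replicate 2, wild-type replicate 3 or sick replicate 2 and to 3 without wild-type replicate 1. The FoxO and autophagy count ran from 2 without sick replicate 2 to 12 without sick replicate 4, and was 3 without sick replicate 1, wild-type replicate 1 or wild-type replicate 2.

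Because FoxO factors bind a short DNA word, the stretches of 250 bases before the RefSeq transcript starts (GRCm38.p6) were searched for TGTTTAC on both strands. It was found in 1 of the 10 rising ligase, FoxO and autophagy genes that had a promoter entry, Trim63, and in 3.54% of the 27025 genes with an entry. The Trim63 stretch is shown to place the match, in capitals; it lies on chr4:134314870-134315119, plus strand, and the match begins 194 bases before the start.
Trim63: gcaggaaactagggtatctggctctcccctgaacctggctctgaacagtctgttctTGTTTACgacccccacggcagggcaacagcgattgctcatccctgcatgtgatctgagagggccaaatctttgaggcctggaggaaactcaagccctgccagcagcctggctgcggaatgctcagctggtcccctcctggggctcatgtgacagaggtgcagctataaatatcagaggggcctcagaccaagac

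Among growth factor signalling genes, 4 of 36 tested for myostatin, activin and BMP signalling rose (11.1%) and 5 fell (13.9%), shares near those of all genes (8.48% and 9.23%). Mstn, the secreted inhibitor of muscle growth, was at 18.7, 34.6, 27.5 and 37.5 CPM in wild type, 38.4 to 57.8 CPM in the healthy knock-in and 136, 78.5 and 75.8 CPM in sick replicates 1, 2 and 4 (3.29-fold, log2 fold change 1.72 ± 0.27, adjusted p = 0.00474). The 3 groups did not overlap, and sick against healthy the log2 fold change of Mstn was 0.96 (adjusted p = 0.0432). Its receptor subunit Tgfbr1 rose 2.45-fold (adjusted p = 0.00738) and Smad4, the shared mediator of the family, 2.01-fold (adjusted p = 0.00494). Id2, a transcriptional target of BMP signals, was at 4.22 to 6.57 CPM in wild type and 1.78 to 2.56 CPM in sick muscle (log2 fold change -1.20 ± 0.23). Fstl1, a secreted binding protein of the family, fell by 1.6 ± 0.35 on the log2 scale.

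In insulin and insulin-like growth factor signalling 6 of 28 tested genes rose (21.4%) and 4 fell (14.3%). Pik3r1, the regulatory subunit of PI3 kinase, was at 42.7, 44.9, 37.5 and 47.8 CPM in wild type and 367, 143 and 95.4 CPM in sick replicates 1, 2 and 4, where replicate 1 was the highest (3.98-fold, log2 fold change 1.99 ± 0.35, adjusted p = 0.00681). Igf1r, the receptor, rose 3.51-fold from 12.4 to 20.8 CPM to 63.3, 90.4 and 25.9 CPM, and the kinase Akt2 1.64-fold. Grb14, an adaptor that damps the insulin receptor, was at 26.8 to 52.1 CPM in wild type and 15.5, 5.49 and 13.4 CPM in sick muscle (log2 fold change -1.95 ± 0.35, adjusted p = 0.0075). Igf1, the ligand, was at 26.8, 37.8, 13.4 and 25.5 CPM in wild type and 6.96, 8.78 and 14.3 CPM in sick muscle, so that wild-type replicate 3 overlapped (log2 fold change -1.34 ± 0.37, adjusted p = 0.0291). Igf1 was the only 1 of these 10 named genes to lose its call without 1 library, which happened without sick replicate 1 or 2 or wild-type replicate 1, 2 or 4 (adjusted p = 0.0534 to 0.115). The 4 genes that fell came to 1 without wild-type replicate 1 or 2 or sick replicate 1 or 2 and to 2 without wild-type replicate 4, and the 5 of the myostatin list to 3 without wild-type replicate 1 or 2 or sick replicate 2. With sick and wild-type libraries fitted alone Igf1 did not pass (adjusted p = 0.0511), the insulin list came to 3 rising and 1 falling, and the falling myostatin list to 3.

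Genes of the glucocorticoid response, a list of known targets that also holds the receptor gene Nr3c1, were higher in the sick muscle. Of 23 tested, 11 rose (47.8%, against 8.48% of all genes) and none fell, with a median log2 fold change of 1.17. Cebpd, a transcription factor induced by glucocorticoids and cytokines, was at 11.9, 7.62, 6.78 and 58.2 CPM in wild type, 13.6 to 96.9 CPM in the healthy knock-in and 108, 481 and 140 CPM in sick replicates 1, 2 and 4 (12.8-fold, log2 fold change 3.68 ± 0.85, adjusted p = 0.0168). Replicate 4 was the highest library in the wild type and in the healthy knock-in, and the sick libraries lay above both. Klf9, a repressor that hormone receptors induce, was at 80.8 to 145.4 CPM in wild type and 274, 321 and 200 CPM in sick muscle (adjusted p = 0.014). Nfkbia, the inhibitor of NF-kappaB, was at 19.2 to 32 CPM in wild type and 55.5, 71.0 and 75.9 CPM in sick muscle, a 2.65-fold rise shared by every sick library (adjusted p = 0.00936). Glul, glutamine synthetase, rose 6.18-fold to 1307, 1805 and 713 CPM from 118 to 321 CPM. Fkbp5, a chaperone of the receptor, rose 3.90-fold (adjusted p = 0.0408), Cdkn1a, the cell cycle inhibitor p21, 5.51-fold (adjusted p = 0.0314), and the receptor gene Nr3c1 itself 1.54-fold (adjusted p = 0.038).

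Interleukin 6 and acute phase genes rose in 5 of 23 tested (21.7% against 8.48% of all genes), among them Il6ra, the receptor of interleukin 6, at 4.06 to 10.7 CPM in wild type and 47.9, 243 and 17.4 CPM in sick muscle (8.75-fold, adjusted p = 0.0262), and Pim3, a kinase that cytokines induce (3.09-fold). The interleukin 6 list shares Cebpb, Cebpd and Nfkbia with the glucocorticoid list, so the rises of Cebpd and Nfkbia count in both. In the circadian clock list 5 of 21 genes rose (23.8%) and 2 fell (9.52%). Rora, an activator of the clock, was at 33.2 to 71.6 CPM in wild type and 209, 411 and 122 CPM in sick muscle (4.07-fold, adjusted p = 0.00758), Per1, also a glucocorticoid target, rose 3.93-fold, and Csnk1e, a kinase of the PER proteins, 1.68-fold. Nr1d1, a repressor in the same loop, was at 108 to 182 CPM in wild type and 65.6 to 77.8 CPM in sick muscle (log2 fold change -1.09 ± 0.29, adjusted p = 0.0268). The sources used here do not give the hour at which muscles were taken, so its part in these levels was not tested. Among 21 tested p53 targets the numbers were the same, 5 and 2. The p53 list shares Cdkn1a with the glucocorticoid list and Sesn1 and Sesn2 with the brakes on mTORC1. Mdm2, the ligase that limits p53, rose 1.61-fold, and Trp53inp2, an autophagy factor, was at 567 to 886 CPM in wild type and 284, 166 and 471 CPM in sick muscle (log2 fold change -1.45 ± 0.29).

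Among the genes named for glucocorticoids, interleukin 6, the clock and p53, those of Nfkbia, Klf9, Rora and Trp53inp2 held without any 1 library. Without sick replicate 2 the other 11 did not pass (adjusted p = 0.0531 to 0.143). Fkbp5, Cdkn1a, Nr3c1, Il6ra, Pim3, Nr1d1 and Mdm2 also missed without wild-type replicate 1, 2 or 3, Glul and Per1 without wild-type replicate 2, Fkbp5, Nr3c1, Csnk1e and Per1 without sick replicate 1, and Nr3c1 and Nr1d1 without sick replicate 4 (adjusted p = 0.0504 to 0.0895). The glucocorticoid count of 11 fell to 2 without sick replicate 2, to 3 or 6 when wild-type replicate 2 or 1 was left out and to 7 without wild-type replicate 3 or sick replicate 1, and the median log2 fold change without sick replicate 2 was 0.73. Over all genes, 526 were called higher without sick replicate 2, against 1225 with all libraries. The interleukin 6 count fell to 1 without sick replicate 2, 2 without wild-type replicate 2 or 3 and 3 without wild-type replicate 1. The clock count ran from 1 without sick replicate 2 to 8 without sick replicate 4, with 3 without wild-type replicate 2 or sick replicate 1. The p53 count fell to 1 without wild-type replicate 1, 2 or 3 and to 2 without sick replicate 2. Without the filter on low counts Cebpd, Glul, Fkbp5, Cdkn1a, Il6ra, Pim3 and Per1 did not pass, with sick and wild-type libraries fitted alone Nr3c1, Csnk1e and Mdm2, and with quality weights per library Fkbp5 (adjusted p = 0.0583 to 0.129). The unfiltered counts of rising genes were 4 for the glucocorticoid response, 2 for interleukin 6, 3 for the clock and 2 for p53. With the sick and wild-type libraries alone the clock count was 3 and the p53 count 2, and with quality weights the clock count was 8. When sick replicate 2 was left out the log2 fold change was 3.05 for Cebpd, 1.63 for Cdkn1a (2.46 with all libraries) and 2.13 for Il6ra (3.13 with all libraries), while Cebpd was at 4.46 without wild-type replicate 4 and Il6ra at 3.99 without sick replicate 4.

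Lists of the stress responses were called in different shares. In the integrated stress response, in which the factor ATF4 induces amino acid transport and synthesis, 6 of 32 tested genes rose (18.8% against 8.48% of all genes) and 2 fell (6.25%). Besides Stc2 and Eif4ebp1, given above, Slc38a2, a transporter of glutamine and other small amino acids, rose 2.08-fold, from 111 to 211 CPM to 399, 377 and 252 CPM (adjusted p = 0.017), and Slc3a2, the shared heavy chain of amino acid exchangers, 1.9-fold (adjusted p = 0.0212). None of 21 chaperones of the endoplasmic reticulum rose and 2 fell (9.52%, near the 9.23% of all genes), Manf (log2 fold change -0.96 ± 0.31) and Pdia4 (-0.93 ± 0.30). Neither Manf nor Pdia4 passed with median-of-ratios scaling (adjusted p = 0.0515 and 0.0524) or without the filter on low counts (0.0745 and 0.0765), Manf did not with sick and wild-type libraries fitted alone (0.0534) and Pdia4 did not with quality weights per library (0.0506). Cytosolic heat shock chaperones fell in 7 of 25 tested (28%) and rose in none, with a median log2 fold change of -0.55. Hspb6, a small heat shock protein of muscle, was at 960, 1181, 1559 and 2038 CPM in wild type and 483, 270 and 444 CPM in sick muscle (log2 fold change -1.82 ± 0.27, adjusted p = 0.00331). Cryab, the chaperone of desmin filaments, was at 550, 482, 915 and 2029 CPM in wild type and 333, 72.9 and 143 CPM in sick muscle (5.41-fold lower, adjusted p = 0.0118), and Dnaja4, a co-chaperone, was 3.24-fold lower. Stc2, Eif4ebp1, Hspb6 and Cryab kept their calls without any 1 library. Slc38a2 and Slc3a2 lost theirs without sick replicate 1 or 2, and Slc3a2 also without wild-type replicate 1. Manf and Pdia4 lost theirs without any 1 of the 7 libraries except that Manf kept it without wild-type replicate 1, and Dnaja4 lost it without sick replicate 2 (adjusted p = 0.0523 to 0.166 over these genes). The heat shock chaperone count fell to 3 without sick replicate 2 and 4 without wild-type replicate 4, and the rising stress response count to 3 without sick replicate 2 or wild-type replicate 1. Cryab did not pass without the filter on low counts (adjusted p = 0.0523), the heat shock count was 3 with sick and wild-type libraries fitted alone, and 10 stress response genes rose with all 32 libraries in the fit.

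**Figure D3:**
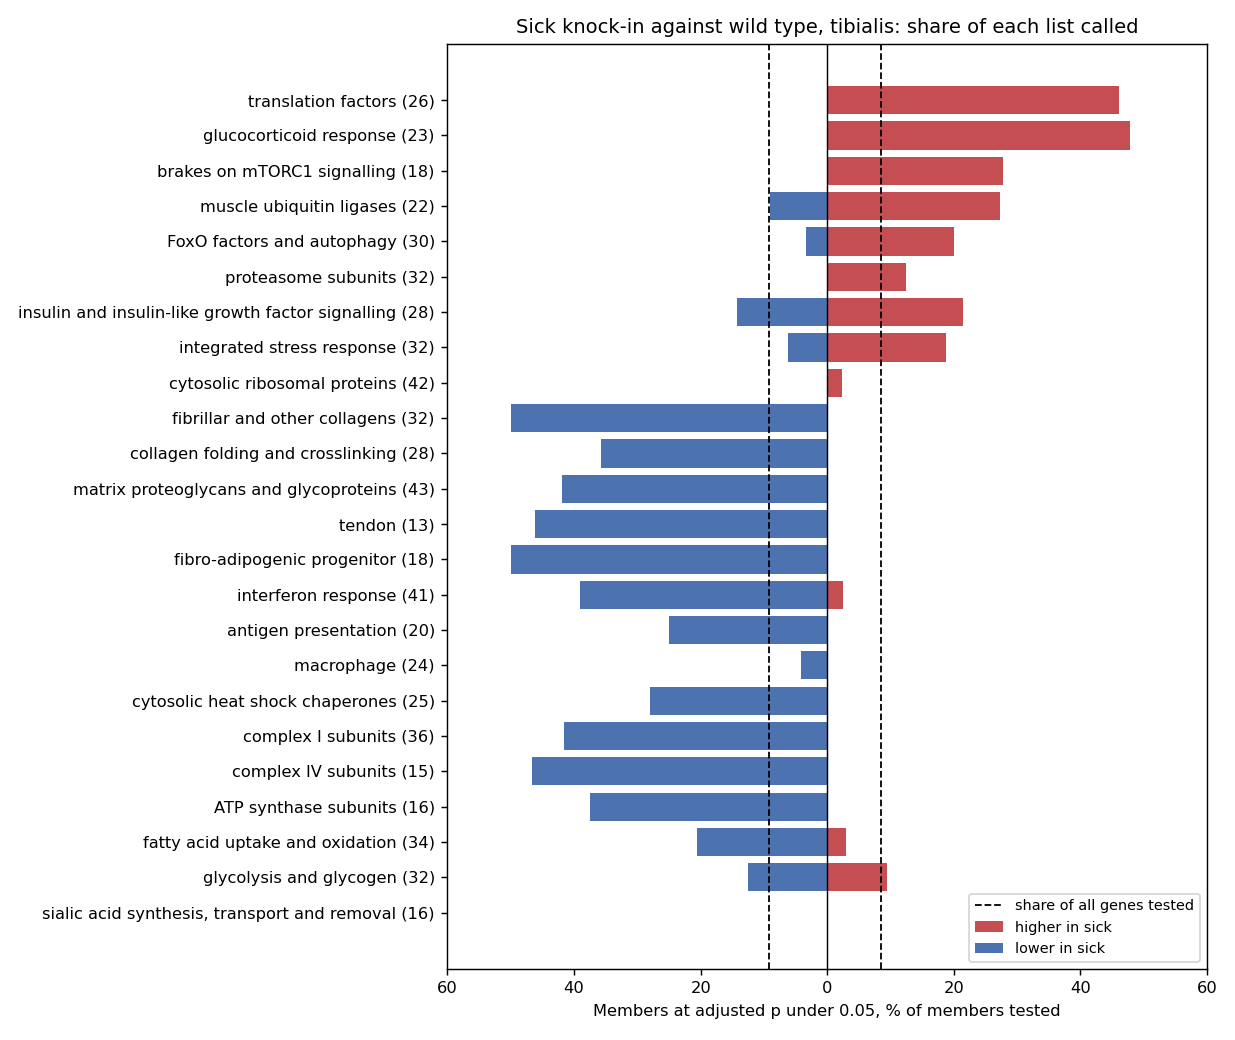
Share of the tested members of 24 lists (number tested in brackets) at an adjusted p under 0.05, higher in sick to the right and lower to the left, with dashed lines at the share of all genes tested (8.48% higher, 9.23% lower). Glucocorticoid response genes and translation factors extend furthest to the right, and collagens and progenitor markers furthest to the left. Sialic acid synthesis has no called member.

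Many extracellular matrix genes fell. Of 32 tested collagen genes 16 fell (50% against 9.23% of all genes) and none rose, and 30 had negative log2 fold changes, with a median of -1.64. Col1a1, a chain of the main fibrillar collagen, was at 1385, 761, 350 and 876 CPM in wild type, 277 to 2036 CPM in the healthy knock-in and 48.2, 128 and 96.8 CPM in sick replicates 1, 2 and 4 (8.90-fold lower, log2 fold change -3.15 ± 0.58, adjusted p = 0.00793). Its partner chain Col1a2 was 8.15-fold lower. Col3a1, the fibrillar collagen of the muscle connective tissue, was at 1765, 1477, 557 and 972 CPM in wild type, 424 to 2749 CPM in the healthy knock-in and 49.2, 102 and 174 CPM in sick muscle (11.4-fold lower, adjusted p = 0.00672). The healthy knock-in libraries spread more widely than the wild type for both collagens but never reached down to the sick range. Col6a2, a chain of the microfibrillar collagen whose loss causes a muscular dystrophy, was at 86.2 to 211 CPM in wild type and 16.8, 20.5 and 37.9 CPM in sick muscle (6.75-fold lower, adjusted p = 0.00466), and Col15a1, of the outer basement membrane, 6.13-fold lower. Col4a1, of the basement membrane itself, fell less, from 376 to 787 CPM to 149, 333 and 246 CPM (log2 fold change -1.28 ± 0.36, adjusted p = 0.0328).

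Among 28 genes of collagen folding and crosslinking 10 fell (35.7%) and none rose. Serpinh1, the collagen chaperone HSP47, was at 135, 121, 89.2 and 173 CPM in wild type and 27.5, 28.6 and 32.2 CPM in sick muscle (4.27-fold lower, log2 fold change -2.09 ± 0.35, adjusted p = 0.00532). Pcolce, an enhancer of procollagen processing, was 3.40-fold, Loxl2, a crosslinking oxidase, 4.05-fold, and Crtap, part of a prolyl hydroxylase complex, 2.28-fold lower. Without 1 library at a time, Col4a1 did not pass without sick replicate 1 or wild-type replicate 1 or 2 (adjusted p = 0.0767 to 0.108), nor Crtap without sick replicate 2 (adjusted p = 0.0502). The other 8 named here held in all 7 fits. Without the filter on low counts, however, Col3a1, Col1a2, Col1a1 and Col4a1 did not pass (adjusted p = 0.0511, 0.0609, 0.0684 and 0.116), and 4 collagen genes were called. The number of collagen genes called fell to 8 without sick replicate 2, 9 without sick replicate 1 and 10 without wild-type replicate 1 or 2, with a median of -1.69 without sick replicate 2. Folding genes came to 4 without sick replicate 2 and 6 without sick replicate 1 or wild-type replicate 1.

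Of 43 matrix proteoglycans and glycoproteins 18 fell (41.9%) and none rose, with a median log2 fold change of -0.98. Lum, the proteoglycan lumican that spaces collagen fibrils, was at 96.5, 44.7, 37.5 and 65.3 CPM in wild type and 5.53, 3.71 and 8.39 CPM in sick muscle (10.4-fold lower, log2 fold change -3.38 ± 0.41, adjusted p = 0.0008). Aspn, a related small proteoglycan, was 3.28-fold lower, Ogn, another, 2.36-fold, and Mfap4, an elastic fibre protein, 9.26-fold. Sparc, a collagen-binding protein, was at 682 to 1194 CPM in wild type and 235, 334 and 275 CPM in sick muscle (adjusted p = 0.00965), and Efemp2, needed for elastic fibres, was 2.83-fold lower. Matrix proteases and their inhibitors fell in 4 of 21 tested (19.05%), among them Plau, the urokinase that activates plasminogen, at 27.4 to 29.4 CPM in wild type and 10.2, 16.2 and 7.73 CPM in sick muscle (adjusted p = 0.00583), and Serpinf1, a secreted inhibitor-like protein, 3.65-fold lower.

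Some markers of the cells that make matrix fell too, but the marker lists share members with the matrix lists. Dcn, Lum, Mfap5 and Col15a1 are shared by the list of fibro-adipogenic progenitors, the stromal cells of muscle. Fmod, Kera and Thbs4 are shared by the tendon list. Of 18 tested progenitor markers 9 fell (50% against 9.23% of all genes) and none rose. Their summed CPM was 1372 to 1844 in wild type, 1225 to 2822 in the healthy knock-in and 667 to 1372 in sick muscle. Smoc2 was at 98.4 to 160 CPM in wild type and 25.4, 28.5 and 41.5 CPM in sick muscle (log2 fold change -1.98 ± 0.21, adjusted p = 0.000334), Thy1, a surface marker of stromal cells, was 10.3-fold lower and Cd34 2.33-fold lower. Pdgfra, the receptor that defines these cells, had a log2 fold change of -0.59 ± 0.39 and did not pass (adjusted p = 0.293), with sick libraries at 16.0, 29.3 and 12.7 CPM against 16.2 to 35.8 CPM. Of 13 tendon markers 6 fell (46.2%), and their summed CPM was 259 to 887 in wild type, 286 to 1449 in the healthy knock-in and 79.1 to 116 in sick muscle, without overlap. Tnmd, a membrane protein of tendon cells, was at 7.54 to 26.4 CPM in wild type and 0.713 to 1.56 CPM in sick muscle (12.7-fold lower, adjusted p = 0.0217), and Thbs4, a matrix protein of tendon, was 6.59-fold lower. In bulk muscle fewer cells of a type and less RNA per cell cannot be told apart, and the part of tendon or stromal tissue in the fall of the collagens was not tested. Cilp2, Tnmd and Kera lost their calls without sick replicate 1 or 2, and Thbs4 without sick replicate 2 (adjusted p = 0.0501 to 0.122), so that the tendon count was 1 without sick replicate 1 and 0 without sick replicate 2, while the progenitor count was 9 or 10 in every such fit. The proteoglycan count fell to 9 without sick replicate 2 and to 10 without sick replicate 1, and the protease count to 2 without wild-type replicate 1 or 2. Without the filter on low counts Thbs4, Cilp2, Tnmd and Kera did not pass, with quality weights per library Cilp2, Tnmd and Kera, and with all 32 libraries Tnmd (adjusted p = 0.0507 to 0.121), and the tendon count was 0 without the filter and 1 with the weights. The proteoglycan count was 9 without the filter, the protease count 2 with sick and wild-type libraries fitted alone and 9 with quality weights, and the progenitor count 15 with those weights. Thbs4 was at a log2 fold change of -2.12 without sick replicate 2 (-2.72 with all libraries).

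Interferon response genes were lower in the sick muscle. Of 41 tested 16 fell (39.0% against 9.23% of all genes) and 1 rose, with a median log2 fold change of -0.70. Gbp2, a guanylate-binding protein of host defence, was at 8.11 to 14.4 CPM in wild type and 4.28, 4.91 and 4.84 CPM in sick muscle (adjusted p = 0.0151), and Psme1, an activator of the proteasome that interferon induces, was 2.27-fold lower. Several members had low counts. Isg15, a ubiquitin-like protein, was at 1.07, 1.217, 2.28 and 1.04 CPM in wild type and 0.357, 0.348 and 0.334 CPM in sick muscle (log2 fold change -1.81 ± 0.48, adjusted p = 0.0253). Ifit1 and Ifit3, which bind foreign RNA or its sensors, had log2 fold changes of -1.31 ± 0.42 and -1.33 ± 0.42 (adjusted p = 0.0489 and 0.0458). Usp18, which removes Isg15 from proteins, was 2.56-fold and Rtp4 2.97-fold lower. Ifitm1, a membrane restriction factor, was the exception, at 0.324 to 1.175 CPM in wild type and 1.95 to 2.20 CPM in sick muscle (adjusted p = 0.0319).

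The interferon-stimulated response element, a DNA word found before many interferon-induced genes, was searched as GAAA, any 2 bases and GAAA again, on both strands, counting overlapping matches, in the 250 bases before RefSeq starts. It was found in 7 of the 11 interferon genes that fell and had a promoter entry (63.6%), in 15 of 33 of all listed interferon genes with an entry (45.5%) and in 936 of all 27025 genes with an entry (3.46%). The list was chosen for known interferon response, so the share is a property of the list and not of the change. The stretches of 4 genes that fell are shown with the matches in capitals, 5′ to 3′ along the gene's strand in RefSeq GRCm38.p6. Isg15 (chr4:156200819-156201068, minus strand) holds 3 overlapping matches beginning 78, 72 and 66 bases before the start. Ifit1 (chr19:34640639-34640888, plus strand) holds matches at 104 and 85 bases, Ifit3 (chr19:34583279-34583528, plus strand) at 156 and 122 bases, and Gbp2 (chr3:142620413-142620662, plus strand) at 59 bases, all of them on the opposite strand, where they read as TTTC, 2 bases and TTTC.
Isg15: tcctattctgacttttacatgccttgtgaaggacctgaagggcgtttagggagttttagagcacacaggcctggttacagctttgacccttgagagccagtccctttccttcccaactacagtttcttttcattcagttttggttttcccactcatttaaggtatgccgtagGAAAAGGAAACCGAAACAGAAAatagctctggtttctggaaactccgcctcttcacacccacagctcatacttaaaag
Ifit1: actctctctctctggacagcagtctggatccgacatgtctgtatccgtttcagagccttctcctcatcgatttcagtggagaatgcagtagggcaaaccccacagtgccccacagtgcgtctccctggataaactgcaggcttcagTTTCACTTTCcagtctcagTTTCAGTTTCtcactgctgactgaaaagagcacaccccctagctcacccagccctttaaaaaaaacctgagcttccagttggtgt
Ifit3: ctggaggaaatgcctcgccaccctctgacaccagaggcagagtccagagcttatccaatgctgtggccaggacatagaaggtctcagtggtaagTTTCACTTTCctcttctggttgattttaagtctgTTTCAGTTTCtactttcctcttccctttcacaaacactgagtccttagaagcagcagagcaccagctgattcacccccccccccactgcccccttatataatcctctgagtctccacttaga
Gbp2: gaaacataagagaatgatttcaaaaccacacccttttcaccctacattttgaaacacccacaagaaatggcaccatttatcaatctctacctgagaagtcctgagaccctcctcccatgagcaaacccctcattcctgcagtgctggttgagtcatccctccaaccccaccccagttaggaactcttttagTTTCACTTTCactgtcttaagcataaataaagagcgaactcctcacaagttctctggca

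Antigen presentation genes fell in 5 of 20 tested (25.0%, against 9.23% of all genes) and rose in none. H2-Aa, a class II chain, was at 23.9, 15.2, 18.3 and 37.5 CPM in wild type and 2.44, 5.30 and 7.67 CPM in sick muscle (4.84-fold lower, log2 fold change -2.28 ± 0.40, adjusted p = 0.00705). Its partner H2-Ab1 was 4.64-fold lower, the invariant chain Cd74 4.53-fold, from 32.6 to 81.9 CPM to 5.17, 12.2 and 20.3 CPM, and H2-DMa, which loads class II molecules, 3.09-fold. Dendritic cell markers, a list that shares class II genes, fell in 4 of 9 tested (44.4%, against 9.23% of all genes). These were H2-Aa, H2-Ab1 and Cd74, already counted for antigen presentation, and Cd209a. The summed CPM of the dendritic list was 72.1 to 161 in wild type and 18.9 to 48.4 in sick muscle. Cd209a, a dendritic cell lectin, was at 0.484 to 1.04 CPM in wild type and 0, 0.155 and 0.334 CPM in sick muscle (adjusted p = 0.0314). Of 24 macrophage markers only Aif1 fell (adjusted p = 0.0212), and their summed CPM overlapped, at 105 to 279 in wild type and 62.3 to 316 in sick muscle. The part of fewer antigen-presenting cells in these levels was not tested. Psme1, Gbp2, H2-Aa, H2-DMa, Cd74 and H2-Ab1 kept their calls without any 1 library. Isg15, Ifit1, Ifit3, Ifitm1, Aif1 and Cd209a lost theirs without sick replicate 1 or 2, Rtp4 and Usp18 without sick replicate 2, Ifit1 and Ifit3 without any of the 7 libraries, Usp18 without wild-type replicate 1, 3 or 4, Ifitm1 without wild-type replicate 1 or 2 and Cd209a without wild-type replicate 1, 2 or 4 (adjusted p = 0.0516 to 0.166). The interferon count fell to 4 without sick replicate 2, 5 without sick replicate 1, 7 without wild-type replicate 2, 8 without replicate 1, 9 without replicate 4 and 10 without replicate 3. Without the filter on low counts Usp18, Ifit1 and Ifit3 did not pass, with all 32 libraries these and Isg15, with sick and wild-type libraries fitted alone Usp18, Ifit3 and Cd209a, with quality weights per library Usp18 and with median-of-ratios scaling Ifit1 (adjusted p = 0.0524 to 0.3). The interferon count was 8 without the filter and 10 with the sick and wild-type libraries alone. Cd209a was at a log2 fold change of -1.57 without sick replicate 1 and -3.17 without sick replicate 4 (-2.48 with all libraries).

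Part of the genes of mitochondrial respiration fell. Log2 fold changes were negative for all 36 tested subunits of complex I, all 14 of complexes II and III with cytochrome c, all 15 of complex IV and 15 of 16 of ATP synthase. Those that passed were 15, 7, 7 and 6 (41.7%, 50.0%, 46.7% and 37.5%, against 9.23% of all genes), all lower, with medians of -0.66, -0.72, -0.73 and -0.59. Ndufab1, a complex I subunit that also serves lipoic acid synthesis, was at 91.3, 92.1, 139 and 70.5 CPM in wild type and 46.4, 26.5 and 48.8 CPM in sick muscle (2.45-fold lower, log2 fold change -1.29 ± 0.25, adjusted p = 0.00965). Cycs, cytochrome c, was at 247, 293, 394 and 227 CPM in wild type and 134, 86.1 and 158 CPM in sick muscle (2.32-fold lower, adjusted p = 0.00874). Sick replicate 2 was the lowest for both genes. Ndufb10 of complex I was 2.13-fold, Uqcrc1 and Uqcrc2 of complex III 1.87-fold and 1.62-fold, Cox5b and Cox7a1 of complex IV 1.76-fold and 2.09-fold, and Atp5h and Atp5j of ATP synthase 1.95-fold and 1.79-fold lower. Of 12 tested genes of the mitochondrial genome all 12 had negative values and 1 passed, mt-Atp6, at 16.4 to 26.0 CPM in wild type and 14.3, 9.67 and 14.7 CPM in sick muscle. The 13 listed genes of this genome summed to 131529 to 150864 CPM in wild type, so that call rests on a very small part of their reads.

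Of 20 regulators of mitochondria 4 rose and 4 fell (20% each). Nrf1, which activates genes of the respiratory chain, was at 8.92 to 11.7 CPM in wild type and 17.2, 28.5 and 14.8 CPM in sick muscle (1.88-fold higher, adjusted p = 0.0181), and Gabpa, a partner in that role, was 1.52-fold higher (adjusted p = 0.0187). Perm1, a muscle factor downstream of PGC-1, was at 448 to 508 CPM in wild type and 221, 55.4 and 271 CPM in sick muscle (3.21-fold lower, adjusted p = 0.0221). In the tricarboxylic acid cycle 8 of 25 genes fell (32%) and 2 rose (8.0%). Mdh1, malate dehydrogenase, was 2.69-fold lower, Dlat of pyruvate dehydrogenase 2.25-fold and Dlst of the oxoglutarate complex 1.75-fold. In fatty acid uptake and oxidation 7 of 34 fell (20.6%) and 1 rose, with Cpt2, which completes the entry of fatty acids into mitochondria, at 61.2 to 116 CPM in wild type and 50.6, 53 and 51.9 CPM in sick muscle (adjusted p = 0.0181) and Hadh 1.97-fold lower.

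The 4 respiratory lists also had negative medians in the healthy knock-in, where none of their members passed. Against wild type the healthy medians were -0.39, -0.43, -0.49 and -0.44, and sick against healthy they were -0.27, -0.26, -0.23 and -0.20. For the tricarboxylic acid cycle the 2 medians were -0.33 and -0.16, and for fatty acid uptake and oxidation -0.40 and 0.0080. Sick against healthy, no member of the cycle or fatty acid list was lower, while 1 and 2 members were higher. In that comparison 1 of the 14 members of complexes II and III with cytochrome c was lower. No member of complex I, complex IV or ATP synthase was, while 6.33% of all genes were lower. Collagens by contrast had a healthy median of -0.04 and a sick against healthy median of -1.80. These comparisons share libraries, so their values are given side by side. Ndufab1, Cycs, Nrf1, Gabpa, Mdh1, Dlst, Dlat and Cpt2 held without any 1 library. Without sick replicate 2, Ndufb10, Uqcrc1, Uqcrc2, Cox5b, Cox7a1, Atp5h, Atp5j, mt-Atp6 and Hadh did not pass (adjusted p = 0.0586 to 0.153). Without wild-type replicate 2, Uqcrc2, Cox5b, Cox7a1, Atp5j, mt-Atp6 and Perm1 did not, nor mt-Atp6 without wild-type replicate 1 or 3 or sick replicate 1, Perm1 without wild-type replicate 3, Atp5h without wild-type replicate 1 and Cox7a1 without sick replicate 1 (adjusted p = 0.05 to 0.0734). Without sick replicate 2 the 4 counts were 1, 1, 0 and 0, though the medians stayed at -0.47, -0.52, -0.57 and -0.43. Complex I fell to 7 without wild-type replicate 2 or 3 and to 9 without wild-type replicate 1, complexes II and III to 4 without wild-type replicate 2, and complex IV to 1 without sick replicate 1, 2 without wild-type replicate 1 or 2, 3 without sick replicate 4 and 4 without wild-type replicate 3. ATP synthase fell to 1 without wild-type replicate 1 or 2 and to 3 without wild-type replicate 3 or sick replicate 1. The cycle count fell to 3 without sick replicate 2, 4 without wild-type replicate 1 or 2 and 5 without wild-type replicate 3, while the fatty acid count ran from 1 without sick replicate 2 through 3 without wild-type replicate 1 or 2 and 4 without wild-type replicate 3 to 14 without wild-type replicate 4. The regulators that rose came to 2 without wild-type replicate 2, sick replicate 1 or sick replicate 2, and those that fell to 2 without wild-type replicate 1, 2 or 3 and 1 without sick replicate 2. With sick and wild-type libraries fitted alone Nrf1, Gabpa, Cpt2, Uqcrc1, Uqcrc2, Cox5b, Cox7a1, Atp5h, Atp5j, mt-Atp6, Perm1 and Hadh did not pass, nor Cox7a1 and mt-Atp6 without the filter on low counts (adjusted p = 0.0509 to 0.0728). In the fit of these libraries alone the 4 respiratory counts were 4, 1, 2 and 0, the cycle count 3, the fatty acid count 0, and the regulators 0 rising and 1 falling. Without the filter complex IV came to 2, fatty acid genes to 4 and rising regulators to 2, and 7 regulators fell with all 32 libraries. Perm1 was at a log2 fold change of -0.97 without sick replicate 2 (-1.68 with all libraries).

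**Figure D4:**
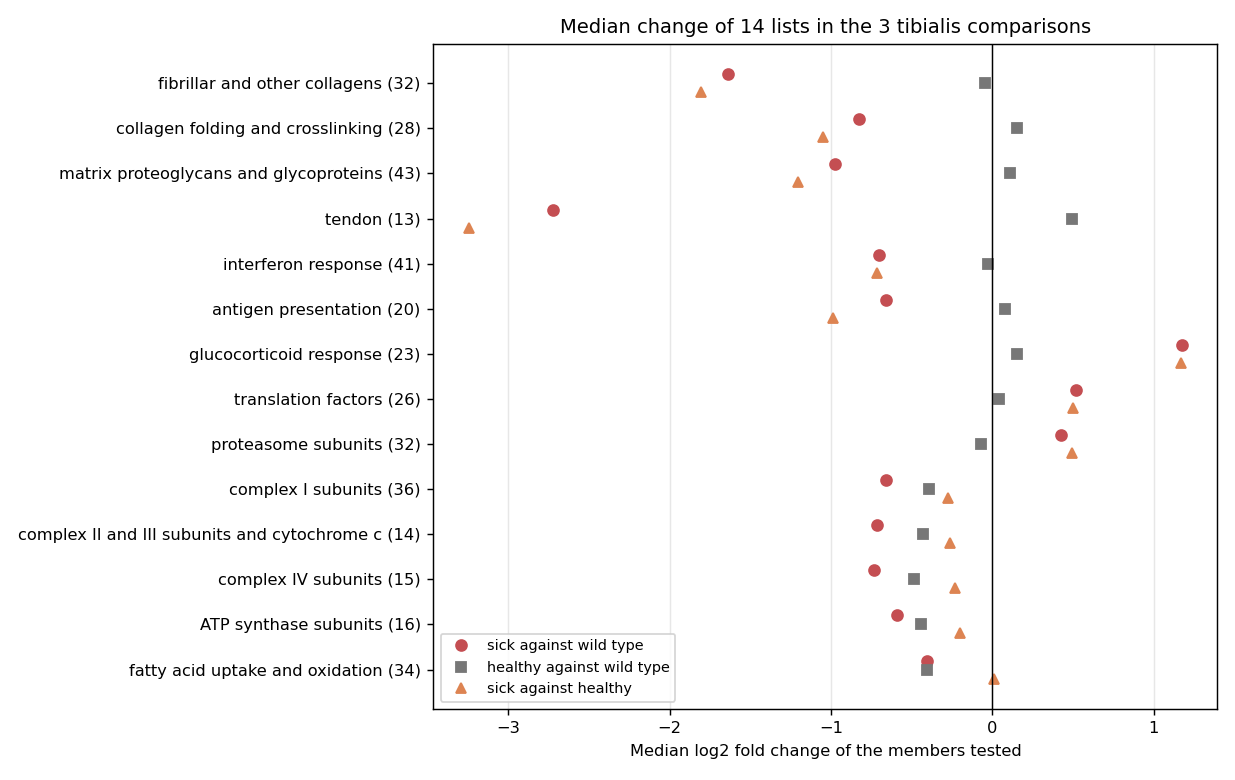
Median log2 fold change of the tested members (number in brackets) of 14 lists in sick against wild type, healthy against wild type and sick against healthy tibialis. Collagen, tendon and other matrix lists have healthy medians near or above 0 and sick medians well below it, whereas the 4 respiratory lists are already negative in the healthy knock-in, at -0.39 to -0.49.

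Fibre-type genes passed in few members, 2 of 35 higher (5.71%) and 4 lower (11.4%), near the shares of all genes (8.48% and 9.23%). Mb, the oxygen store myoglobin of oxidative fibres, was at 3884, 3228, 6325 and 2556 CPM in wild type, 1786 to 2105 CPM in the healthy knock-in and 1353, 643 and 1209 CPM in sick muscle (3.70-fold lower, log2 fold change -1.89 ± 0.31, adjusted p = 0.00511). All healthy knock-in libraries lay between the other groups for Mb. Myh2, the myosin of fast oxidative fibres, was at 2128, 1030, 2228 and 1898 CPM in wild type, 310 to 887 CPM in the healthy knock-in and 1181, 415 and 380 CPM in sick muscle, so that sick replicate 1 overlapped the wild type (log2 fold change -1.59 ± 0.46, adjusted p = 0.0343). Myh1, of the intermediate fast type, was 1.53-fold lower (adjusted p = 0.0458), and sick against healthy its log2 fold change was 0.08. Actn3, the alpha-actinin of fast glycolytic fibres, was at 4079, 7398, 5568 and 6516 CPM in wild type and 17719, 11548 and 15748 CPM in sick muscle (2.57-fold higher, log2 fold change 1.36 ± 0.24, adjusted p = 0.00672). Atp2a1, the calcium pump of fast fibres, was 1.66-fold higher (adjusted p = 0.0229), and Myh4, the myosin of the fastest fibres, had a log2 fold change of 0.99 ± 0.32 that did not pass (adjusted p = 0.0526).

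Among 29 genes of the sarcomere, the Z-disc and the response to stretch 2 rose (6.90%) and 4 fell (13.8%). Csrp3, a Z-disc sensor of stretch, was at 72, 190, 330 and 699 CPM in wild type and 47.2, 9.71 and 10.2 CPM in sick muscle, a wide spread in wild type but without overlap (log2 fold change -3.85 ± 0.87, adjusted p = 0.0157). Lmod3, which starts thin filaments, was 2.22-fold lower (adjusted p = 0.00407), and Ankrd23, a titin-binding stretch protein, was at 227 to 239 CPM in wild type and 133, 59.6 and 151 CPM in sick muscle. These shares are near those of all genes. Mylk2, the kinase of fast myosin light chain, was 2.1-fold higher. Of 26 genes of calcium handling and excitation 1 rose (3.85%) and 2 fell (7.69%), including Atp1b1, a subunit of the sodium pump, at 267 to 391 CPM in wild type and 185, 41.7 and 91.1 CPM in sick muscle (adjusted p = 0.0107). In the dystrophin complex and the glycosylation of dystroglycan 2 of 30 rose, Dmd 1.9-fold and Dag1 1.57-fold, and 1 fell. That gene was Gmppb, which makes the GDP-mannose used to glycosylate dystroglycan, at 3.71, 4.30, 4.98 and 4.52 CPM in wild type and 1.61, 0.658 and 1.67 CPM in sick muscle (3.72-fold lower, log2 fold change -1.89 ± 0.31, adjusted p = 0.00534).

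Mb, Actn3, Lmod3, Ankrd23, Atp1b1 and Gmppb held without any 1 library. Myh2, Myh1, Csrp3, Mylk2, Dmd and Dag1 did not pass without sick replicate 2, Atp2a1, Dmd and Dag1 without sick replicate 1, and Myh2 and Myh1 without sick replicate 4 (adjusted p = 0.0582 to 0.133). Atp2a1, Myh2, Myh1 and Dag1 did not pass without wild-type replicate 1, Myh1 without replicate 2, Myh2 and Dag1 without replicate 3, and Myh2 and Myh1 without replicate 4 (adjusted p = 0.0516 to 0.106). The 4 fibre-type genes that fell came to 1 without wild-type replicate 1 or sick replicate 2 and to 2 without wild-type replicate 2, 3 or 4, and the 4 of the sarcomere to 2 without sick replicate 2. With sick and wild-type libraries fitted alone Atp2a1, Myh2, Myh1, Ankrd23, Dmd and Dag1 did not pass, without the filter on low counts Myh2 and Csrp3, with all 32 libraries Myh2 and Myh1, with quality weights per library Myh2 and Dag1, and with median-of-ratios scaling Myh1 (adjusted p = 0.0505 to 0.367). The falling fibre-type count was 1 with sick and wild-type libraries alone or all 32 libraries and 2 without the filter or with weights, and the sarcomere count 2 without the filter or with sick and wild-type libraries alone. Csrp3 was at a log2 fold change of -4.57 without sick replicate 1.

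Other metabolic lists were mixed. Of 32 genes of glycolysis and glycogen 3 rose (9.38%) and 4 fell (12.5%), near the shares of all genes. Slc16a1, the lactate and pyruvate carrier of oxidative fibres, was at 83.4 to 98.7 CPM in wild type and 59.3, 62.7 and 55.9 CPM in sick muscle (adjusted p = 0.0108), and Pgam2, the muscle phosphoglycerate mutase, was at 1865 to 3823 CPM in wild type and 1074, 260 and 1495 CPM (3.40-fold lower). Fbp2, which runs a step of glycolysis backwards, was at 14, 48.5, 22.5 and 15.2 CPM in wild type and 106, 41.2 and 50.8 CPM in sick muscle, with overlap at wild-type replicate 2. In sterol and fatty acid synthesis 6 of 27 fell (22.2%) and 1 rose (3.70%). Hmgcs1, early in the sterol pathway, was 1.55-fold lower, and Fdft1, the squalene synthase, was 2.66-fold higher, at 51.3 to 87.4 CPM in wild type and 143, 369 and 89.0 CPM in sick muscle. Of 25 genes of polyamine, methyl group and NAD metabolism 3 rose and 3 fell (12% each), the latter being Azin1, which protects the enzyme that starts polyamine synthesis (35.5 to 57.0 CPM in wild type and 15.9, 14.9 and 19.3 CPM in sick muscle, adjusted p = 0.00238), Nmnat1, the nuclear NAD synthase (1.83-fold lower), and Nmrk2. Slc16a1, Azin1, Nmnat1 and Nmrk2 held without any 1 library. Fdft1 did not pass without sick replicate 1 or 2 or wild-type replicate 1, 2 or 4, Hmgcs1 without sick replicate 1 or 2 or wild-type replicate 2, Fbp2 without sick replicate 1 or wild-type replicate 1 or 4, and Pgam2 without wild-type replicate 2 or 3 (adjusted p = 0.0509 to 0.0806). Glycolysis rises came to 0 without wild-type replicate 1 or sick replicate 1 and to 1 without wild-type replicate 4 or sick replicate 2. Its falls came to 1 without wild-type replicate 2, to 2 without wild-type replicate 3, wild-type replicate 4 or sick replicate 2 and to 7 without sick replicate 4. Sterol falls came to 2 without wild-type replicate 1, 2 or 4 and to 1 without sick replicate 1 or 2. Polyamine rises came to 0 without wild-type replicate 1 and to 1 without wild-type replicate 2, 3 or 4, and the falls of that list to 6 without sick replicate 4. Fbp2, Pgam2 and Fdft1 did not pass with sick and wild-type libraries fitted alone, Pgam2, Hmgcs1 and Fdft1 without the filter on low counts, Fbp2 with quality weights per library and Slc16a1 with all 32 libraries (adjusted p = 0.0553 to 0.0858). Glycolysis falls came to 1 with the sick and wild-type libraries alone and sterol falls to 2 without the filter. Pgam2 was at a log2 fold change of -0.998 without sick replicate 2 (-1.77 with all libraries).

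Of 25 genes of the neuromuscular junction and the denervation response 2 rose (8.0%), Chrna9 and Cdh15, and none fell. Of 19 myogenic factors 4 rose (21.1%) and none fell, with Eya4, a cofactor in the transcription of fast-fibre genes, at 16.0 to 29.2 CPM in wild type and 59.6, 36.5 and 67.0 CPM in sick muscle (2.28-fold, adjusted p = 0.0162) and Mef2d 1.65-fold higher. Cdh15, the adhesion protein M-cadherin of satellite cells, was 1.78-fold higher (adjusted p = 0.0176), while 1 of the 14 satellite cell markers rose and 1 fell. Ngfr, the neurotrophin receptor listed for Schwann cells, was at 2.47 to 4.05 CPM in wild type and 12.7, 22.2 and 9.95 CPM in sick muscle (4.78-fold, log2 fold change 2.26 ± 0.37, adjusted p = 0.00512), although 2 of the 13 tested markers of that list fell. Among 18 endothelial markers 1 rose, Flt1, a receptor for vascular growth factor (1.68-fold), and 2 fell, including Aplnr. Rgs5, a pericyte gene, was 1.96-fold lower. Of 14 adipocyte markers 1 rose, Plin4, a lipid droplet protein that muscle fibres also make, at 260 to 352 CPM in wild type and 1072, 1436 and 762 CPM in sick muscle (adjusted p = 0.0243). Of 24 cell cycle genes 2 rose (8.33%) and 3 fell (12.5%), and Rb1, the brake on entry into the cycle, was 1.9-fold higher (adjusted p = 0.0101). Neutrophil and erythrocyte markers had no call among 4 and 7 tested, and none of the 16 lymphocyte markers reached the count filter. Eya4, Ngfr and Rb1 held without any 1 library. Plin4 and Flt1 did not pass without wild-type replicate 1, 2 or 3 or sick replicate 1 or 2, Cdh15 and Mef2d without sick replicate 1, and Rgs5 and Aplnr without sick replicate 2 (adjusted p = 0.0503 to 0.107). The 3 cell cycle falls came to 1 without wild-type replicate 1, 2 or 4 or sick replicate 1 and to 0 without sick replicate 2. Chrna9 did not pass without wild-type replicate 1, 2 or 3. The 4 myogenic rises came to 1 without sick replicate 1 and to 2 without sick replicate 2 or wild-type replicate 1 or 3. Chrna9 and Plin4 did not pass without the filter on low counts, Chrna9 and Flt1 with all 32 libraries, and Mef2d and Flt1 with sick and wild-type libraries fitted alone (adjusted p = 0.0532 to 0.0771), where the myogenic count was 1. It was 2 with quality weights per library.

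With quality weights per library, which give less weight to libraries that vary more, 20 of the called log2 fold changes given here moved by more than 1.5-fold. Chrna9 was at 4.15, Doc2b at 2.48, Fibin at 2.11, Ddit4 at 2.62 and Trim63 at 1.86. Kera was at -4.80, Ces1f at -6.72, Nrep at -3.26, Nmrk2 at -2.91, Cnksr2 at -2.86, G0s2 at -2.73, Spp1 at -3.61, Foxo6 at -1.80 and Grb14 at -1.34. Csrp3 was at -3.04, Atp1b1 at -1.23 (-1.87 with equal weights), Myh2 at -0.94, Cryab at -1.58, Pgam2 at -1.16 and Cd209a at -3.10.

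The sick effect in tibialis was then set against the sick effect in quadriceps and gastrocnemius in a fit over all 32 libraries. That fit had no term for the mouse, so its p-values treat libraries that may share a mouse as independent. The difference of effects passed in 6 of 15160 genes (0.0396%) against quadriceps and in 6 (0.0396%) against gastrocnemius, while 7.57% and 2.45% of genes had an unadjusted p under 0.05. With the kidney list included the counts were 37 (0.243%) and 31 (0.204%). The stretch sensor Csrp3 had the clearest difference. Its level in sick quadriceps replicates 2, 3 and 4 was 529, 248 and 32.3 CPM against 1.98 to 58.7 CPM in wild-type quadriceps, a rise of 4.37 ± 1.0 on the log2 scale, whereas in tibialis it fell by 3.86 ± 0.99. The difference, tibialis minus quadriceps, was -8.23 ± 1.40 (adjusted p = 0.00366) and passed without any 1 tibialis library, but not without the filter on low counts (adjusted p = 0.0618). Ankrd1, a titin-associated stretch gene, was at 19.9, 13.4, 8.4 and 82.3 CPM in wild-type and 23.4, 3.61 and 10.8 CPM in sick tibialis on the scale of this fit, which overlapped. In the other two muscles it was at 3.86 to 17.1 CPM in wild type and 36.1 to 104 CPM in the sick state. The difference was -4.31 ± 0.88 against quadriceps (adjusted p = 0.0249) and -4.76 ± 0.88 against gastrocnemius (adjusted p = 0.00829), and both were lost without sick replicate 2 (adjusted p = 0.101 and 0.0723).

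Enah, an actin regulator, differed from gastrocnemius by -1.76 ± 0.38 (adjusted p = 0.0445), a call lost without any 1 tibialis library (adjusted p = 0.0511 to 0.222). The non-coding gene 2310015K22Rik differed by 3.34 ± 0.62, rising 1.94 ± 0.37 in tibialis and having a log2 fold change of -1.40 ± 0.49 in gastrocnemius. The others were Sult1d1, Prss8, Spink1, Xylb and Cyp2j13, at no more than 1.70 CPM in wild-type tibialis. Xylb was at 0.926 CPM or more in each wild-type tibialis library on the scale of this fit. It was at 0.514 CPM or less in each knock-in tibialis library of either state. Sult1d1, Prss8, Spink1 and Cyp2j13 had 0 reads in the 3 sick libraries and 1 to 7 in the 4 healthy knock-in libraries, against 51 to 75 in wild type, which is the pattern of the kidney list, although that list does not hold them. Against quadriceps, Sult1d1, Prss8 and Xylb lost their calls without sick replicate 2 and Spink1 without any 1 sick library (adjusted p = 0.0645 to 0.0943), and against gastrocnemius Sult1d1 and Cyp2j13 lost theirs without any 1 sick library or wild-type replicate 3, and Sult1d1 also without wild-type replicate 2 or 4 (adjusted p = 0.0532 to 0.194). Mstn rose in tibialis by 1.71 ± 0.40 in this fit and was at -0.01 ± 0.41 in quadriceps, but the difference of 1.72 ± 0.57 did not pass (adjusted p = 0.452). With the kidney genes removed before scaling, 1 gene, Csrp3, still differed from quadriceps and 0 from gastrocnemius. The gastrocnemius count fell to 2 without wild-type replicate 3 and to 3 without wild-type replicate 1, wild-type replicate 2 or sick replicate 4.

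**Figure D5:**
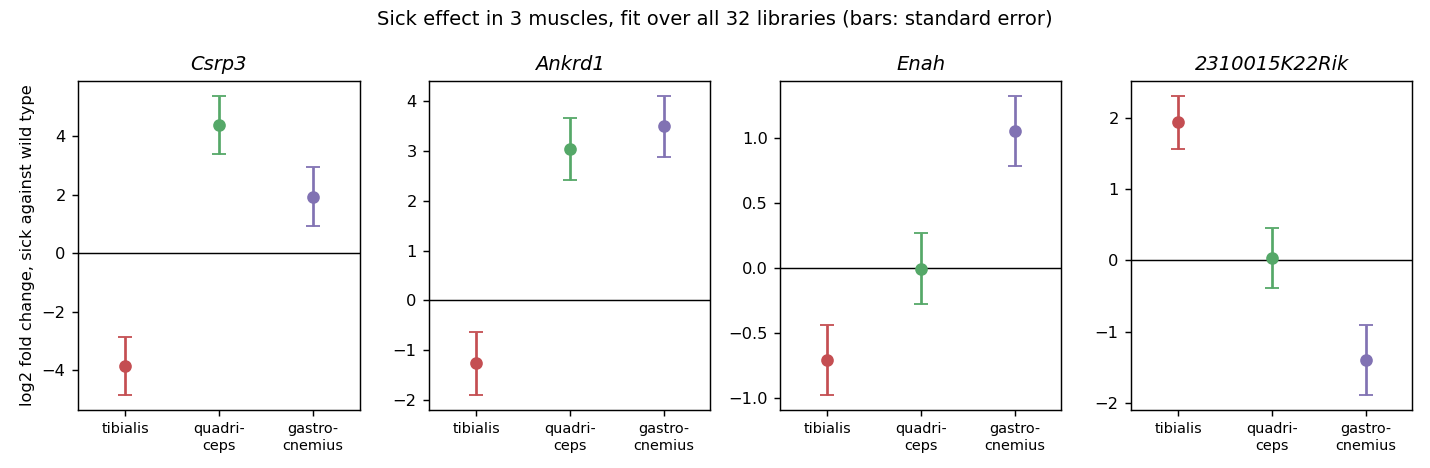
Log2 fold change of sick against wild type for 4 genes in tibialis, quadriceps and gastrocnemius, from the fit over all 32 libraries, with standard errors as bars. Csrp3 is negative in tibialis (-3.86) and positive in quadriceps (4.37), and Ankrd1 is positive in quadriceps (3.04) and gastrocnemius (3.49) and at -1.26 in tibialis.

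Medians of the pathway lists had the same sign in the 3 muscles for most of the larger changes. Collagens had a median log2 fold change of -1.64 in tibialis, -1.23 in quadriceps and -1.19 in gastrocnemius. In the same order, glucocorticoid response genes had medians of 1.17, 1.49 and 1.41, and translation factors of 0.52, 0.58 and 0.61. Complex I had -0.66, -0.24 and -0.56. Fbxo32 rose by 2.79 in tibialis, 2.62 in quadriceps and 3.05 in gastrocnemius on the log2 scale. Fibre-type proteins had a median of -0.48 in tibialis, 0.52 in quadriceps and 0.43 in gastrocnemius, a difference that was not tested for the list. In simulated data with the same groups 4.5% of genes made to differ 2-fold between tibialis and quadriceps were called. Of those made to differ 4-fold 90.5% were called. The simulated spread between libraries was set alike for every gene, so these shares may not hold here. Differences near 2-fold can be missed with these libraries.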

How the data were processed

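Total RNA from tibialis muscle was sequenced, 1 library per sample. Per the submitters' processing notes the authors used cutadapt 1.18, TopHat2 2.1.1, HTSeq 0.6.0 and DESeq2 1.22.1 with the GRCm38 genome; the sources used here give neither settings nor strand handling. The deposited table holds raw read counts per gene and library (genes without a value are marked with a symbol in place of a number), the authors' normalised values, which were not used for tests, and the authors' log2 fold changes and adjusted p-values.

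The 7 libraries compared and the 4 healthy knock-in tibialis libraries were fitted together with limma 3.58.1 (voom, robust empirical Bayes) in R 4.3.3, after adding 0.5 to each count and scaling totals by TMM. Genes entered with a CPM worth 10 counts in the median library, in no fewer libraries than the smallest group has, and a summed count of at least 15. P-values were adjusted by Benjamini-Hochberg over all 14520 genes tested, with a threshold of 0.05. Between-muscle differences came from 1 fit over all 32 libraries, without a term for the mouse. Two-sided tests were used throughout. The tests were checked on simulated data: with 200 genes changed between sick and wild type, 0% were recovered at 1.5-fold, 57% at 2-fold and 100% at 4-fold. Every simulated gene had the same setting for spread between libraries, and the changed genes were well counted. No simulated library was made to stand apart as sick replicate 2 did. Recovery in the real libraries can therefore differ from these shares.

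Genes named are Gne, the 12 highest and 12 lowest fold changes as described, up to 4 called members of each list with the smallest p, further members to complete a group, the between-muscle genes with the smallest p, and the kidney genes with the highest wild-type level; Prss8, Sult1d1, Spink1 and Cyp2j13 are named as between-muscle genes. One gene of the lists is not reported here by name. The members and lists were chosen with earlier results of these data known. Alternatives were another scaling, no filter, fewer or more libraries in the fit, quality weights, kidney genes removed or used as a covariate, a replicate block and leaving out each library.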

Additional observations from a re-analysis of the deposited data

Results flagged for a closer look

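Among the genes described, 182 of which have a fold change here, 1 wild-type library stood far from the other 3 in 15 genes. Chance alone sets apart about 1 in 20 groups of values, and genes that move together in 1 library are not independent. Whether 15 genes are more than chance would give was not tested. Replicate 4 was the high one for Cebpd (58.2 CPM), Chad (33.4 CPM), Ddit4 (152 CPM), Dnaja4 (135 CPM), Thbs4 (390 CPM), Gbp2 (14.4 CPM) and Ankrd1 (79.7 CPM), and the low one for Trp53inp2 (567 CPM) and Dlst (417 CPM). Replicate 3 was the high one for Isg15 (2.28 CPM), Ndufb10 (580 CPM) and Cmas (27.5 CPM) and the low one for Eif4g3 (118 CPM) and Dmd (75.6 CPM). Replicate 2 was low for Fbxo32 (110 CPM). Among healthy knock-in libraries, replicate 4 stood apart for Cebpd (96.9 CPM).

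The sick effect differed between muscles by a test of the difference, in limma, for the following genes. Tibialis minus quadriceps was -8.23 for Csrp3 and -4.31 for Ankrd1 on the log2 scale. It was -3.84 for Xylb, which was lower in every knock-in tibialis library of either state than in every wild-type one. Tibialis minus gastrocnemius was -4.76 for Ankrd1, -1.76 for Enah and 3.34 for 2310015K22Rik. For genes of the kidney pattern, the differences from quadriceps were -9.98 for Slc34a1, -9.09 for Acsm2, -6.39 for Sult1d1, -5.43 for Spink1 and -4.89 for Prss8. Those from gastrocnemius were -10.77 for Kap, -9.34 for Slc34a1, -8.62 for Acsm2, -5.97 for Cyp2j13, -5.71 for Sult1d1 and -5.61 for Prss8. These fitted values depend on the 0.5 added to each count where the sick libraries hold 0 reads.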

How the results depend on the processing

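The count of 2558 genes was 2601 with median-of-ratios scaling, 1938 without the filter on low counts, 3826 with all 32 libraries in the fit, 3027 with quality weights and 2507 with kidney genes removed before scaling. It was 1175 with sick and wild-type libraries alone, 2 with the kidney load as a covariate, and 902 to 2982 when 1 library was left out. The replicate block gave 1203 genes. Same-numbered sick and wild-type libraries correlated at 0.0871, -0.0186 and -0.00423 in their deviations from the group means, and no sick library correlated best with the wild-type library of its own number, so the numbers were not taken as pairs. The 6 differences from quadriceps became 30 without the filter, 1 with kidney genes removed, and 5 to 7 without 1 library. The 6 from gastrocnemius became 32, 0 and 2 to 4.

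Directions of the named genes reversed under no alternative other than the kidney covariate, which is nearly the same as the genotype and cannot be told apart from it. Under it the log2 fold changes that turned positive were G0s2 2.34, Psme1 0.16, Rtp4 0.13, Ifit3 0.11, Ndufab1 0.56, Ndufb10 0.58, Cycs 0.50, Uqcrc1 0.50, Uqcrc2 0.42, Cox5b 0.52, Cox7a1 0.86, Atp5h 0.48, Atp5j 0.68, mt-Atp6 0.65, Perm1 0.038, Mdh1 0.52, Dlst 0.046, Dlat 0.55, Cpt2 0.047, Hadh 0.46, Atp1b1 0.026 and Pgam2 1.65, and those that turned negative were Cebpd -1.40, Doc2b -1.48, Il6ra -0.38, Fibin -0.094, Tsc1 -0.74, Ddit4 -3.96, Eif4g3 -0.084, Fbxo32 -1.41, Trim63 -1.86, Ubr2 -0.70, Psme4 -0.17, Gaa -0.22, Nfkbia -0.22, Klf9 -0.13, Cdkn1a -0.11, Nr3c1 -0.14, Per1 -0.15, Mdm2 -0.31, Nrf1 -0.24, Gabpa -0.0030, Mylk2 -0.22 and St8sia6 -0.54. None of these passed there. Count models were not run, because a check of units read the symbols for missing values in the count columns as text. The values that were fitted were whole numbers. At this depth 3 reads stand for the detection floor. In simulated data, with the spread between libraries set alike for every gene, none of the 200 genes changed 1.5-fold was called. Changes of that size can therefore be missed, though how many are missed in these libraries was not tested.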
